A study of Mus musculus with 2 samples.

Results

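The Fst-high keratinocytes described here are back skin cells named for Fst, their leading gene, which most but not all of them held. Fst encodes follistatin, a secreted protein that binds activins and some bone morphogenetic proteins (BMPs). The cells were selected on their own counts of unique molecular identifiers (UMIs, 1 per captured transcript). A cell was chosen by at least 20 UMIs of Krt5 and Krt14, which mark basal and follicle keratinocytes, and at least 3 UMIs of Fst, Nts, Ntrk2 and Ptger4 together. It also had to stay under limits set on genes of other keratinocytes: Ly6a under 2, Sostdc1, Vsnl1, Rapgef5 and Cyp27a1 under 3, Cd34 and Krt24 under 3, Lgr5, Slc38a4 and Abi3bp under 3, Krt8 and Krt18 under 5, Krt79, Defb6 and Cst6 under 20, and Krt1 and Krt10 under 100. In all, 863 of 7564 cells met the rule, of which 556 of 3936 came from the control library and 307 of 3628 from the induced library.

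The back skin was taken at postnatal day 53 from 1 control mouse and from 1 mouse with inducible miR-205, both of strain C57BL/6 per the labels, sex-matched and carrying a Krt14-H2B-GFP allele that marks keratinocyte nuclei. In the inducible mouse, doxycycline lets a Krt14-driven transactivator switch on a TRE-miR-205 transgene, in a line begun by injection into FVB mice, so that induction is limited to Krt14-expressing cells. Doxycycline chow was fed for 4 days from day 49, and while the extraction protocol says this of both mice, the sample characteristics call the control untreated. Sorting set epidermal, follicle and dermal cells at 3:5:2, and each group is 1 library, so that the mouse, the library and the transgene cannot be told apart and no value below has a replicate check.

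Follistatin holds activin and BMP ligands away from their receptors, and in skin the balance between BMP signals and their antagonists is part of the hair cycle. Ntrk2 is the receptor of brain-derived neurotrophic factor (Bdnf), Nts is the peptide neurotensin, Ptger4 is a receptor of prostaglandin E2 that raises cyclic AMP, and Plk2 is an inducible kinase of the polo-like family. miR-205 is an abundant microRNA of stratified epithelia, which pairs through its seed with sites in messenger RNAs.

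The microRNA that doxycycline induces in the inducible mouse is shown first, since the comparison of the libraries turns on it. The RefSeq mature sequence lies at chr1:193507503-193507524 on the minus strand of GRCm38.p6, and its seed, bases 2 to 8, is in capitals.
mmu-miR-205-5p: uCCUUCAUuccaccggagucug
The letters that pair with this seed, ATGAAGG, were searched on the transcript strand in the longest annotated 3′ UTR of each gene. They occurred in 11.97% of the 8739 genes that had a UTR and passed the count filter in Fst-high keratinocytes, and in 10.4% of all 19915 UTRs. The UTRs of Fst, Nts, Ntrk2, Ptger4 and Plk2 did not hold these letters. Of the 6 genes that the study names as miR-205 targets, Piezo1 had no UTR matched by symbol and was not searched. Among the other genes, matches lay in Actb (beta-actin) and Rock2 (a kinase that acts on the actin cytoskeleton), and Ccl7, a chemokine gene that stood out in these cells, also had one. They are shown with their flanks, 5′ to 3′, with the match in capitals, and the Rock2 UTR ends where its line ends.
Actb: aacttgatgtATGAAGGctttggtctc
Rock2: cattgaagagATGAAGGcaga
Ccl7: ttcttgtattATGAAGGgactttgcaa

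The data did not bear out a label built on Fst, Nts and Ntrk2 together. Fst made up 95.9% of the 28083 rule UMIs in the selected control cells and 96.6% of 15006 in the induced ones, and 91.4% and 88.3% of cells reached 3 UMIs through Fst alone. Nts had 4 UMIs in all in the control cells, from 1 cell, and 1 UMI in the induced cells. Its counts lay elsewhere, with 82 and 104 UMIs in the Ly6a keratinocytes (at least 2 Ly6a UMIs) of the control and induced libraries. Ntrk2 was seen in 12.2% of the selected control cells and 13.0% of the induced ones. The cells are therefore called by their leading gene, Fst, and given no cell type name.

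Fst itself ranged widely among the selected cells. In the control library the lowest, median and highest Fst counts per cell were 0, 30 and 329 UMIs, and in the induced library 0, 25 and 301. Cells with Fst and none of the other 3 rule genes were 42.8% of the control and 56.0% of the induced cells, and cells with Fst and Ptger4 alone were 40.8% and 25.7%. Cells with Ptger4 as their only rule gene were 3.96% and 5.21%. Plk2, which the rule did not use, had a UMI in 55.0% and 40.1% of cells.

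The lower limit of 3 UMIs cut through a tail of low counts that fibroblasts also reached. Among cells within every other limit, 49 control and 17 induced cells had 2 UMIs and were left out, whereas 39 and 16 had exactly 3 and entered. Fibroblasts, taken as the level that cells of another type reach, had 3 or more UMIs of the 4 genes in 15 of 119 control cells (12.6%, exact 95% interval 7.23 to 19.9) and 9 of 159 induced cells (5.66%, 2.62 to 10.5), at median depths of 11303 and 10910 UMIs. Selected cells with 3 to 4 UMIs, 12.8% and 10.4% of all, cannot be told from that level one by one. At 20 or more UMIs stood 352 control (63.3%) and 175 induced (57.0%) cells and 0 fibroblasts, which allows a share of up to 3.05% and 2.29% of fibroblasts.

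**Figure D1:**
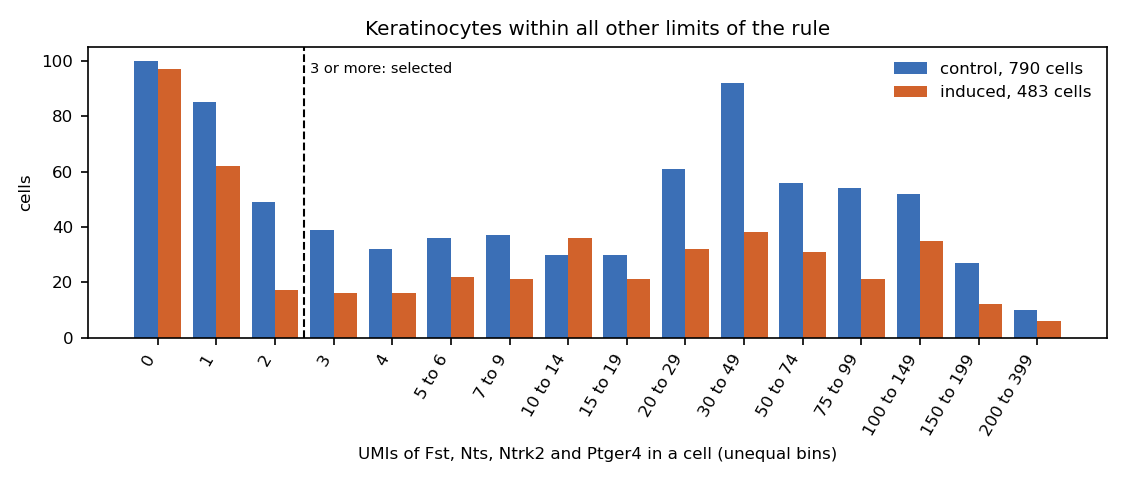
UMIs of the 4 rule genes per cell (horizontal axis, unequal bins) against the number of cells (vertical axis) for 790 control and 483 induced keratinocytes within all other limits of the rule. The dashed line is the lower limit of 3 UMIs, and most selected cells lie in the bins from 20 UMIs upwards, with 352 control and 175 induced cells there.

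Fst-high keratinocytes made up 17.5% of 3186 control keratinocytes (exact 95% interval 16.1 to 18.8) and 11.4% of 2682 induced keratinocytes (10.3 to 12.7). The difference was -6.00 percentage points (95% interval -7.78 to -4.21). These intervals, like all below, cover counting error only, and the sort gates set which keratinocytes entered. Median depth was 10570.5 UMIs per control and 11031 per induced cell, and the shares at a limit of 20 UMIs were 11.0% and 6.52%.

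High Fst was not particular to the selected cells. Per 1000000 UMIs of each group's sum (CPM), the order of Fst levels in the control library was Fst-high keratinocytes at 4463 (counting interval 4410 to 4517), the Sostdc1 group (at least 3 UMIs of Sostdc1, Vsnl1, Rapgef5 and Cyp27a1) at 3851, keratinocytes with at least 3 UMIs of Cd34 and Krt24 at 3033, Ly6a keratinocytes at 682 and fibroblasts at 85.7. The induced library kept this order at 4157, 2958, 2400, 818 and 52.0, and no neighbouring intervals overlapped in either library. The reference used below, 234 control and 176 induced keratinocytes that pass every other limit but hold fewer than 3 rule UMIs (limit-matched keratinocytes), stood at 36.3 and 22.4 by construction. Ptger4 was at 174 and 122 in Fst-high keratinocytes, next to 128 and 95.9 in the Sostdc1 group and 117 and 156 in Ly6a cells, but 22.2 and 10.9 in Cd34 or Krt24 cells. Plk2 was at 323 and 292 in Fst-high keratinocytes, 350 and 414 in the Sostdc1 group, 242 and 322 in Ly6a cells, and 81.6 and 26.9 in Cd34 or Krt24 cells. Ntrk2 was far lower than these, at 16.2 and 23.5 in Fst-high keratinocytes, 24.8 and 24.5 in the Sostdc1 group, 15.2 and 29.0 in Ly6a cells and 2.20 and 0.495 in Cd34 or Krt24 cells.

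**Figure D2:**
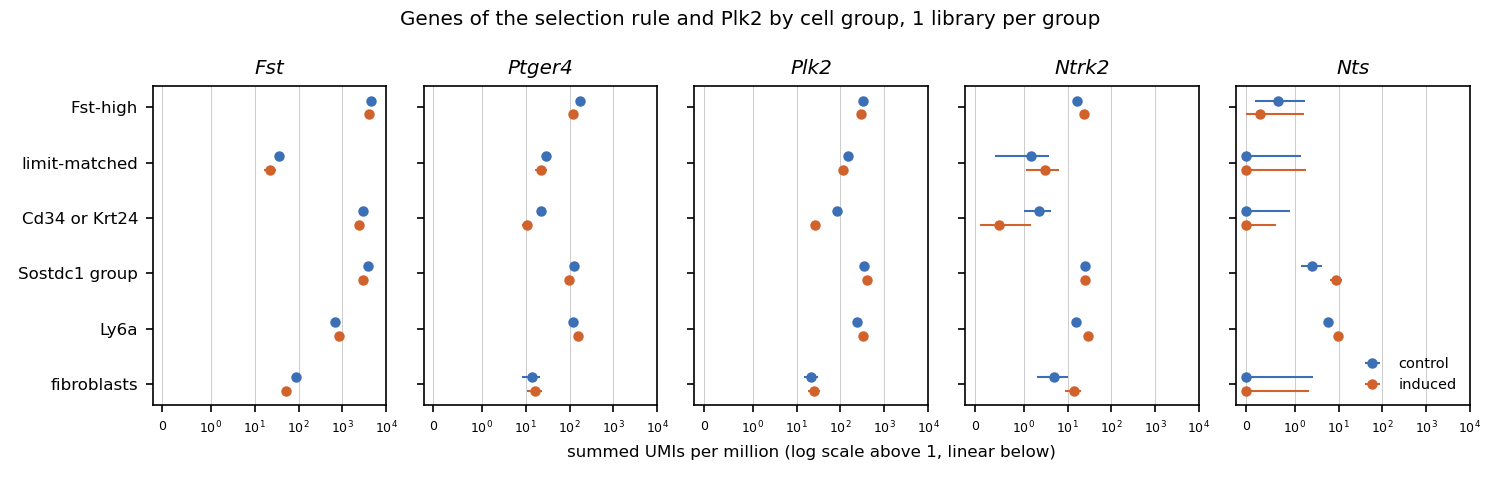
Level of the 4 rule genes and Plk2 (CPM, logarithmic above 1 and linear below) in 6 cell groups of the control (blue) and induced (orange) library, with exact 95% counting intervals. Fst was high in 3 keratinocyte groups and Nts was at most 9.67 in any group, in Ly6a keratinocytes of the induced library.

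Genes outside the rule were compared between Fst-high and limit-matched keratinocytes within each library. Since the cells were picked on their counts, these values describe the selection and carry no test. Of 10669 genes with at least 20 UMIs, 204 were at least 2-fold higher in Fst-high keratinocytes in both libraries (1.91%) and 437 at least 2-fold lower in both (4.1%). The 20 genes with the highest ratio are described by what they encode, in groups made after the genes were known.

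Serpinb11, a serine protease inhibitor family gene, led them. It was at 64.6 CPM in control Fst-high keratinocytes against 2.57 in limit-matched ones (log2 ratio 4.56, interval 3.60 to 5.98) and at 99.5 against 3.48 in the induced library (4.74, 3.78 to 6.16). It was seen in 18.5% and 31.9% of Fst-high keratinocytes, and its level was close to that of Cd34 or Krt24 cells, 63.8 and 85.8 CPM.

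Ligands, receptors and other signalling proteins were among the 20. Pthlh, parathyroid hormone-like peptide, had log2 ratios of 3.78 (3.09 to 4.67) and 3.07 (2.66 to 3.52) in the control and induced libraries. Ctgf, a matricellular protein and common YAP target, had 4.21 and 3.43. Bdnf, the ligand of Ntrk2, had 2.75 and 2.63, and Grem1, a secreted BMP antagonist, had 2.75 and 2.48. Robo2, a receptor of Slit guidance cues, was at 2.99 and 4.14. Not all of these were highest in Fst-high keratinocytes, since Grem1 stood at 167 and 257 CPM in Cd34 or Krt24 cells against 28.3 and 98.3, and Bdnf at 41.8 and 43.4 against 23.4 and 32.1. Ctgf was lower than in Cd34 or Krt24 cells as well, with log2 ratios of -0.62 and -0.24.

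Matrix and binding proteins made up another set. Aspn, asporin, a small proteoglycan that binds TGF-beta, had log2 ratios of 3.46 and 3.40, Ltbp1, which tethers latent TGF-beta, 3.37 and 3.81, and Col5a2, a fibrillar collagen chain, 2.85 and 2.36. Vwa2, a basement membrane protein, had 2.22 and 2.19. Outside this set, Cryab, a small heat shock chaperone, had 2.82 and 3.10, and Ank, a membrane transporter, 3.26 and 2.88. Aspn, Ltbp1 and Col5a2 are also fibroblast genes, so the 6 fibroblast markers Col1a1, Col1a2, Col3a1, Dcn, Lum and Pdgfra were summed. They came to 28.7 and 20.1 CPM in Fst-high keratinocytes, 26.8 and 20.9 in limit-matched ones and 113498 and 77749 in fibroblasts, with at most 7 and 2 UMIs in a Fst-high cell.

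Genes of small-molecule handling were Crabp2 (retinoic acid binding, 3.52 and 2.69) and Alox12e (an epidermal lipoxygenase, 2.25 and 2.36). Both turned direction in both libraries when all other keratinocytes served as the reference. The transcription factors Tshz2 (2.46 and 3.19) and Zfhx3 (2.02 and 2.35) were among the 20 as well. Pyy, the gut peptide YY, had 4.05 and 2.08, but 78.0% and 91.4% of its UMIs lay in 5 cells, and its induced ratio turned to -0.33 under 5% mitochondrial UMIs and to -0.71 when cells were thinned before selection.

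The chemokine genes Ccl2 and Ccl7, which draw monocytes, were also carried by few cells. Ccl2 was at 659 and 651 CPM in Fst-high keratinocytes and 81.1 and 6.96 in limit-matched ones (3.02 and 6.50), and its 5 highest cells held 37.1% and 74.6% of its UMIs. Ccl7 had ratios of 3.59 and 5.34, with 60.4% and 76.9% in 5 cells. Fibroblasts had 2737 and 4758 CPM of Ccl2.

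Sebaceous and lipid genes stood on the other side. Among the 10 lowest genes were Ces1d, Akr1c18, Tmem56, Scd1, Igfbp2, Pdk4, Nav3, Avpr1a and Abcc3, with log2 ratios between -4.86 and -2.67. Akr1c18, a steroid dehydrogenase, was at 129 and 201 CPM against 1294 and 3150 in limit-matched keratinocytes (-3.32 and -3.97), and Scd1, the desaturase that makes oleate, at 24.2 and 14.9 against 232 and 384 (-3.26 and -4.67). All 5 sebaceous markers were at least 2-fold lower in both libraries. Limit-matched keratinocytes with 20 or more UMIs of Plin2 and Akr1c18 were 20.1% and 30.7% of that reference, against 2.52% and 2.61% of Fst-high keratinocytes, and their part in these ratios was not tested.

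**Figure D3:**
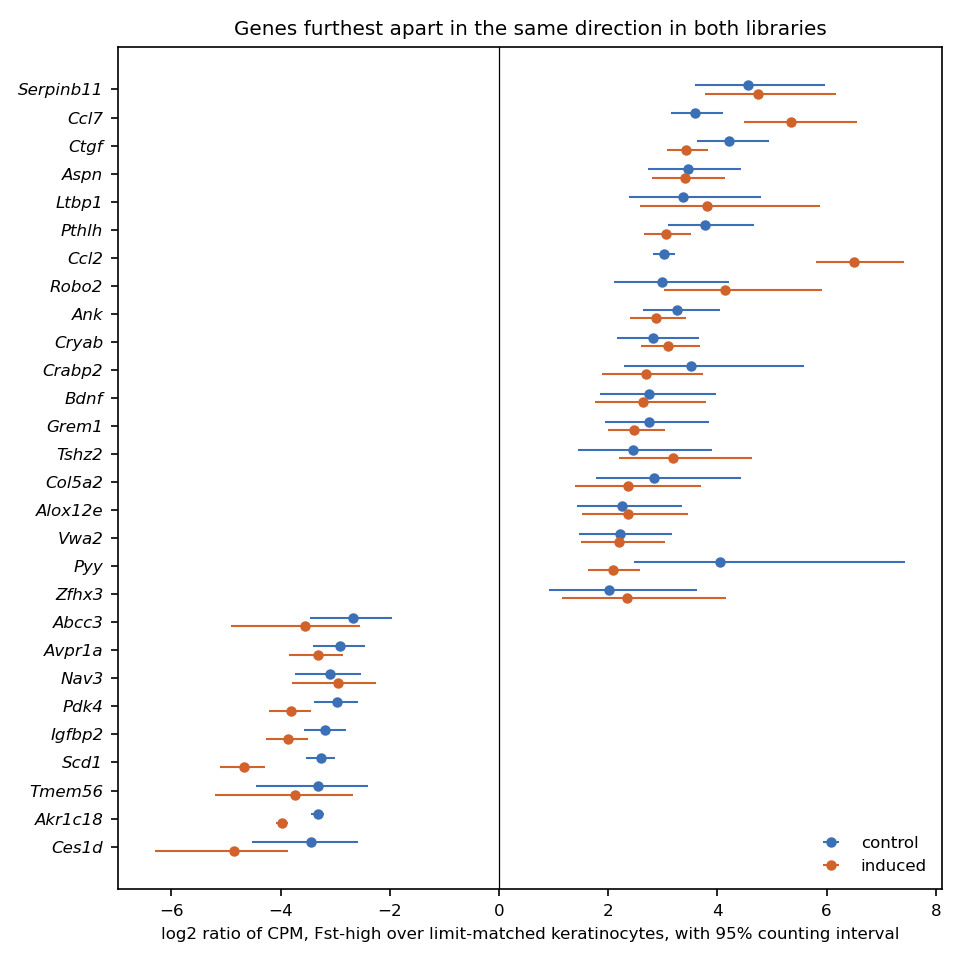
Log2 ratio of CPM of Fst-high over limit-matched keratinocytes (horizontal axis) for 19 of the 20 highest and 9 of the 10 lowest genes (rows), in the control (blue) and induced (orange) library, with exact 95% counting intervals. The genes, all outside the rule, were picked by the library with the smaller difference, a choice that fixes a shared direction. They run from Serpinb11 at 4.56 and 4.74 to Ces1d at -3.45 and -4.86.

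The 20 genes were also set against the 2 keratinocyte groups with similar Fst. Their counts in these same Fst-high keratinocytes had picked them, which favours values above 0 here. The shares of all genes, given beside them, carry no such choice, so the 2 are not a like comparison. Against Cd34 or Krt24 cells the counting interval lay above 0 in both libraries for 11 of 20 genes (18.6% of all genes tested). It lay below 0 for 4 (16% of all), namely Ctgf, Bdnf, Grem1 and Vwa2. Against the Sostdc1 group it lay above 0 for 9 (6.06% of all) and below 0 for 0 (8.36% of all). Aspn, Robo2 and Pyy, the last resting on few cells, were above both groups in both libraries, as were 2.62% of all genes. Aspn stood at 54.5 and 113 CPM, against 21.7 and 33.8 in Cd34 or Krt24 cells and 41.3 and 57.0 in the Sostdc1 group.

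Gene lists of the pathways around Fst, Ntrk2 and Ptger4 are given by counts and medians, beside 1.91% of all genes higher, 4.1% lower and medians over all genes of -0.06 (control) and -0.0047 (induced). Of 35 measured activin, BMP and TGF-beta genes, 5 were at least 2-fold higher and 2 lower in both libraries, with medians of 0.28 and 0.32. One of the 5 is Fst itself, which the selection fixed, and another is Grem1. The lower ones were the ligand Bmp4 (-2.22 and -2.06) and the co-receptor Tgfbr3 (-1.66 and -2.19). Of 13 neurotrophin and neurotensin genes, Bdnf and the rule gene Ntrk2, whose direction the selection set, were higher and none lower (medians 0.45 and 0.44). Of 11 prostaglandin genes 1, the rule gene Ptger4, was higher and none lower (medians 0.25 and 0.37), while Ptgs2, the inducible cyclooxygenase, had 0.81 and 1.05, the latter turning to -0.15 under 5% mitochondrial UMIs.

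Transcription factor, keratin and matrix lists held single genes that moved far. Of 28 epithelial transcription factors 3 were higher and 1 lower (medians 0.24 and 0.43), with Gata6, a factor of the upper follicle, at 1.64 and 2.05, and Sox4 at -1.60 and -1.11, while Gata3 had -1.17 and -0.90. Of 17 keratins 3 were higher and 3 lower (medians -0.27 and 0.04), and Krt17, an appendage keratin, stood at 5647 and 6944 CPM against 1511 and 1767 (1.90 and 1.97). Of 32 integrin and basement membrane genes 3 were higher and 1 lower (medians 0.04 and 0.64), with the follicle matrix gene Egfl6 at 1.89 and 2.16 and the laminin chain Lamb1 at -2.67 and -2.55. Of 25 axon guidance genes 2 were higher and 2 lower (medians 0.11 and 0.09), with Sema3e at 1.69 and 1.63 and Sema3f at -1.49 and -1.30.

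Stress and immediate early genes did not separate the groups as a list. Of 32 immediate early and cyclic AMP response genes 3 were higher and 2 lower (medians 0.15 and 0.11), with Ier3 at 1.11 and 1.52, the nuclear receptor Nr4a2 at 1.32 and 1.94, and Egr3 at -1.13 and -1.04, the latter turning to 0.36 under 5% mitochondrial UMIs. Of 11 heat shock genes none was 2-fold apart in both libraries (medians 0.02 and -0.19), although Hspa1a had 0.16 and -1.90. Of 50 actin cytoskeleton genes 1 was higher and none lower (medians 0.05 and 0.22), and Lima1, an actin bundler, had -0.58 and -0.49.

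Of the 16 lists, that of the cell cycle held the highest number of lower genes. Of 30, 10 were at least 2-fold lower and none higher in both libraries (4.1% of all genes), with medians of -0.62 and -0.56. Over the settings of the closing section, the median of this list ran from -0.79 to -0.23 in the control library. In the induced library it ran from -0.85 to 0.10. The cyclin genes Ccnb2 (-2.16 and -3.31) and Ccna2 (-2.64 and -2.13) were the lowest of the list in the smaller of both ratios. Each had at most 30 UMIs per library in Fst-high keratinocytes. Of the other lists, 1 of 35 Wnt genes was higher and 3 lower (medians -0.03 and 0.13), 1 of 17 Hedgehog and Notch genes was higher and none lower (0.04 and 0.33), 3 of 31 growth factors and receptors were higher and 4 lower (-0.19 and 0.16), and 3 of 30 chemokine, cytokine and antigen presentation genes were higher and 2 lower (0.03 and 0.48). Wif1, a secreted Wnt inhibitor, had 1.05 and 3.13, Il33, an alarmin, -1.30 and -1.91, and Cxcl1, a neutrophil chemokine, -1.61 and -1.28. In the induced library Cxcl1 turned to 0.67 under 5% mitochondrial UMIs and 0.82 against all other keratinocytes, and in the control library Wif1 turned to -0.20 with at least 2 of the 4 rule genes required.

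Fst-high keratinocytes were not of 1 kind. UMI limits on leading genes, set after their values were seen, described the mix. Cells with 3 or more UMIs of Pthlh and Aspn were 64 of 556 control cells (11.5%, 8.98 to 14.5) and 86 of 307 induced cells (28.0%, 23.1 to 33.4), and 23 and 21 of them lay within 2 UMIs of the limit. They had more Fst, 7768 and 8054 CPM against 4111 and 2985 in the remaining cells, and more Krt17, 15728 and 15837 against 4571 and 4271. Postn, a matricellular protein, followed at 1324 and 1046 against 183 and 230, and Serpinb11 at 356 and 299 against 33.6 and 39.5. Bdnf stood at 198 and 128 CPM in them against 4.77 and 3.36. Their Krt14 was lower, 3377 and 2667 against 8953 and 8142, as was Ntrk2, 3.44 and 1.24 against 17.6 and 30.2.

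Cells with 3 or more Ptger4 UMIs, which that count alone would have selected, were another subset, with 146 control (26.3%, 22.6 to 30.1) and 62 induced cells (20.2%, 15.8 to 25.1). In both subsets fell 3 and 6 cells, 4.69% and 6.98% of the Pthlh and Aspn cells, against 26.3% and 20.2% of all Fst-high keratinocytes. Igfbp3, which binds insulin-like growth factors, was at 515 and 409 CPM in them against 85.6 and 59.3 in the other Fst-high keratinocytes. Krt17 was lower in them, 3891 and 4213 against 6417 and 7952, and Serpinb11 was 13.0 and 13.8 against 87.3 and 131. The Ptger4 limit was also met by 24.4% and 16.1% of the Sostdc1 group and 28.2% and 35.3% of Ly6a cells. In Cd34 or Krt24 cells it was met by 2.59% and 1.11%.

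Smaller subsets completed the mix. Cells with 20 or more UMIs of Ccl2 and Ccl7 were 5.94% and 4.23%, cells with 10 or more of Igfbp3 6.12% and 4.56%, and cells with 20 or more of Plin2 and Akr1c18 2.52% and 2.61%. The Ccl2 and Ccl7 limit was met by 9.05% and 4.73% of the Sostdc1 group and 1.18% and 0.474% of Cd34 or Krt24 cells. The Igfbp3 limit was met by 8.25% and 8.69% of Cd34 or Krt24 cells and 0.232% and 0.315% of the Sostdc1 group. In Ly6a cells it was met by 38.3% and 31.7%, and in limit-matched keratinocytes by 19.2% and 10.8%. None of the 33 control and 13 induced Ccl2 and Ccl7 cells was a Pthlh and Aspn cell. Of all Fst-high keratinocytes, 11.5% and 28.0% were Pthlh and Aspn cells. Of the Ccl2 and Ccl7 cells, 5 of 33 and 3 of 13 had any UMI of the 6 fibroblast markers. Neither these limits nor one of 3 Krt6a UMIs, described next, was met by 36.0% of control and 22.1% of induced cells.

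The share of Pthlh and Aspn cells differed between the libraries by 16.5 percentage points (95% interval 10.9 to 22.3), and by 14.1 points (8.94 to 19.7) with every cell thinned to 5000 UMIs, a depth that 24 control and 11 induced cells did not reach. Krt6a cells (3 or more UMIs), which overlapped them in 41 and 56 cells, differed by 18.3 points (11.4 to 24.9), or 15.2 (8.71 to 21.8) after thinning. Ptger4 cells differed by -6.06 points (-11.7 to -0.0937), or -5.95 (-9.34 to -2.18) after thinning, a share that rests on a gene of the rule. In Cd34 or Krt24 cells, where Krt6a cells were the majority at 82.5% and 77.1%, the Krt6a share was lower in the induced library, by -5.45 points (-10.2 to -0.469). In the Sostdc1 group the Pthlh and Aspn share differed by 7.86 points (2.81 to 13.1) and in Cd34 or Krt24 cells by 2.49 points (-1.38 to 6.13). Fibroblasts reached this limit in 46.2% and 52.8% of cells, whereas limit-matched keratinocytes did so in 0.855% and 2.27%.

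**Figure D4:**
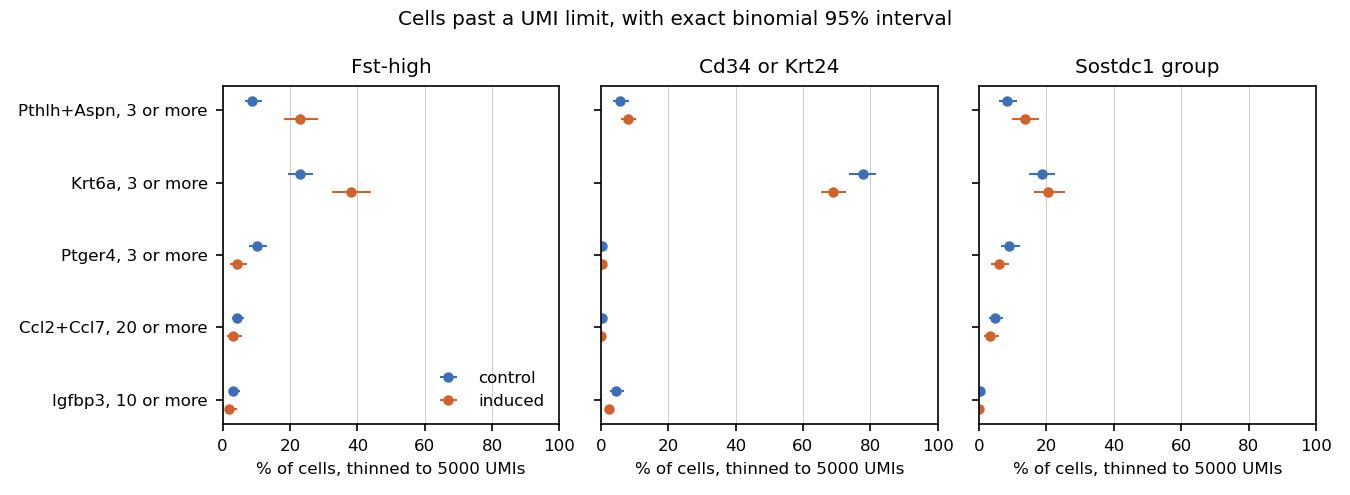
Share of cells past 5 UMI limits (rows) after thinning to 5000 UMIs per cell, in Fst-high, Cd34 or Krt24 and Sostdc1-group keratinocytes of the control (blue) and induced (orange) library, with exact binomial 95% intervals. In Fst-high keratinocytes the Pthlh and Aspn cells were 8.83% and 23.0% and the Ptger4 cells 10.3% and 4.39%, and Krt6a cells were most frequent in Cd34 or Krt24 keratinocytes, at 77.9% and 69.1%.

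To ask how expression in these cells differed with miR-205 induction, the induced library was set against the control library within Fst-high keratinocytes. The level of miR-205 itself was not measured in these cells. The study reports its rise in sorted hair follicle stem cells at an earlier day of induction. Of 9836 genes with at least 20 UMIs, 308 were at least 2-fold higher in the induced library (3.13%) and 194 at least 2-fold lower (1.97%), with a median log2 ratio of 0.01. The rule genes chose the cells of each library, so that their ratios are a description of the selected cells. Fst had -0.10 (-0.13 to -0.07), at 4463 and 4157 CPM. Ptger4 had -0.51 (-0.68 to -0.35), Plk2 -0.15 (-0.26 to -0.04) and Ntrk2 0.54 (0.09 to 0.97). In all other keratinocytes Ptger4 had -0.04 and Fst -0.19.

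The 6 targets that the study names were near the centre of all genes in Fst-high keratinocytes, with a median of -0.05. In limit-matched keratinocytes their median was -0.44, against -0.03 for all genes, and this difference between the cell groups was not tested. Rock2 was lowest, at 342 and 266 CPM (-0.36, -0.48 to -0.25), and had -0.30 in all other keratinocytes. Actb had -0.09 (-0.11 to -0.07), Actn4, an actin crosslinker, -0.09 (-0.19 to 0.00) and Ctnna1, alpha-catenin, -0.02 (-0.14 to 0.10). Actn1, also a crosslinker, was higher at 0.24 (0.11 to 0.38), and Piezo1, a mechanosensitive channel, had 0.25 (-0.06 to 0.56). Of 50 actin cytoskeleton genes 1 was at least 2-fold higher and 1 lower. Of the 50, 34 lay below 0, as did 4766 of all 9836 genes. Their median was -0.08, and -0.25 in limit-matched keratinocytes. The focal adhesion gene Vcl had -0.49 (-0.67 to -0.32). Over all tested genes with a UTR, the median was -0.0022 for the 1046 with the seed match and 0.01 for those without, whose UTRs were shorter (medians of 2475 and 1069 bases).

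Most of the reported genes with the largest ratios fell into 2 kinds, set after their values were seen. Some differed alike in other cells. Gm8797 was at 20.9 and 560 CPM (4.74, 4.48 to 5.02) and had 4.62 in all other keratinocytes and 4.39 in fibroblasts. Gm10093 had 168 UMIs in control Fst-high keratinocytes and 0 in induced ones, at least 32.4-fold lower against a floor of 3 UMIs in the induced group, and -6.79 in all other keratinocytes. Gm7324 (-2.29, others -2.19), 2310007B03Rik (-2.86, others -2.10), Eva1a (-2.77, others -2.14), Myadm (-1.69, others -2.22), Rpgrip1 (2.24, others 1.87) and the interferon-inducible Ifi27l2a (2.22, others 2.97) were of this kind. The 3 Gm genes are predicted loci whose counts may be shared with near-identical copies, so their values are uncertain.

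Others rested on few cells. Slpi, a protease inhibitor, had 2 and 152 UMIs, of which 6 induced cells held all. The interferon gene Ifnk had 23 and 97 UMIs in 6 and 5 cells, the chemokine genes Ccl20 and Cxcl2 had 90.5% and 97.6% of their induced UMIs in 5 cells, and the guanylate-binding protein Gbp2 and the class I gene H2-M2 had 82.5% and 84.4%. Pyy, with 91 and 326 UMIs, had 12 and 16 positive cells. Hamp, hepcidin, had 141 and 3 UMIs, with 97.9% of the control ones in 5 cells, and Tnfaip6 had 102 and 14, with 86.3% there. Without the 5 highest cells of each gene, Ifnk had -0.79, Cxcl2 -0.13 and Tnfaip6 0.020.

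Mmp2, a gelatinase, was spread over more cells, 72 and 13. It was at 16.7 and 3.73 CPM (-2.12, -3.12 to -1.33), with -0.89 in all other keratinocytes, and the difference between these groups of cells was not tested.

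Genes of the Pthlh and Aspn cells were higher in the induced library. Pthlh stood at 78.1 and 210 CPM (1.43, 1.26 to 1.60), Ctgf at 146 and 345 (1.24, 1.11 to 1.37), Aspn at 54.5 and 113 (1.05, 0.84 to 1.27) and Grem1 at 28.3 and 98.3 (1.79, 1.53 to 2.07). The larger share of these cells moved with those ratios, and its part in them was not tested. Within the Pthlh and Aspn cells, Pthlh had 0.33 (0.15 to 0.51), Aspn -0.18 (-0.40 to 0.04), Bdnf -0.63 (-1.03 to -0.23), Ctgf 0.90 (0.74 to 1.07) and Grem1 0.75 (0.44 to 1.06), where Pthlh and Aspn chose the cells. In the remaining cells Pthlh had -0.54 (-1.35 to 0.17), Aspn 0.59 (-0.69 to 1.80) and Bdnf -0.46 (-1.78 to 0.63). Ctgf had -0.93 (-1.24 to -0.64) there, whereas Grem1 had 1.20 (0.60 to 1.81). Fst had -0.46 (-0.50 to -0.42) in the remaining cells and 0.05 (-0.0027 to 0.11) within the Pthlh and Aspn cells. Ctgf also turned to -0.52 with at least 2 of the 4 rule genes required.

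**Figure D5:**
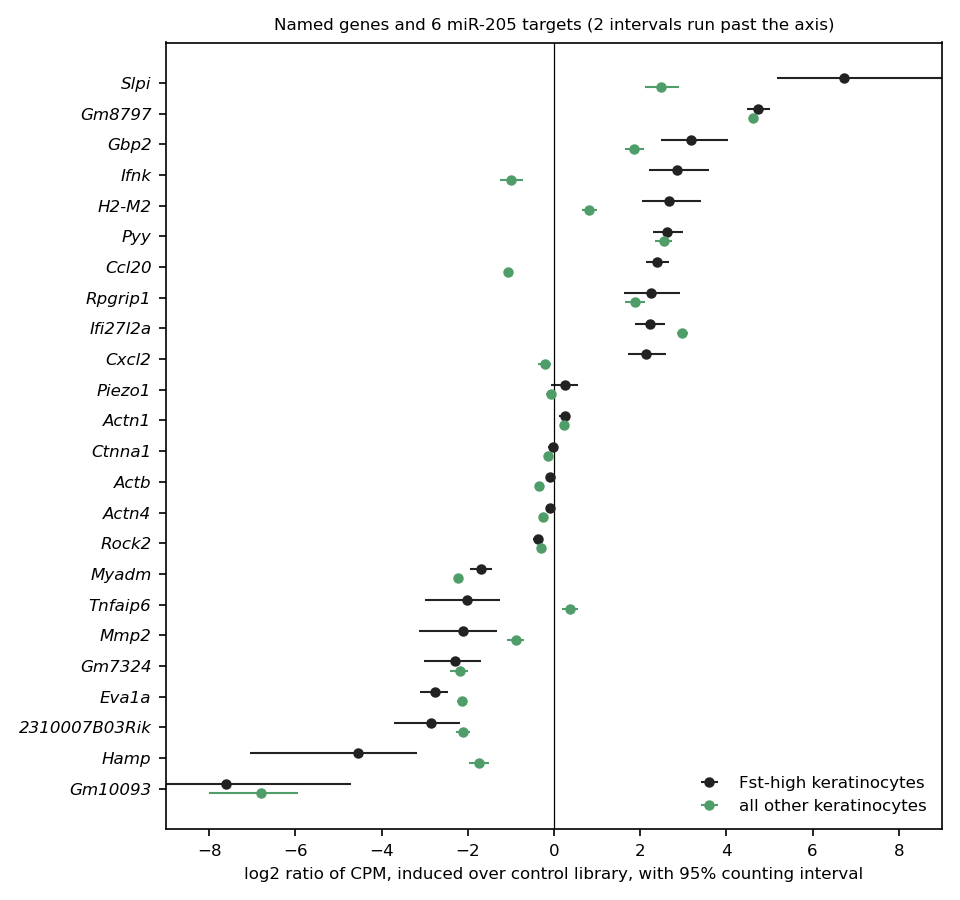
Log2 ratio of CPM, induced over control library (horizontal axis), in Fst-high keratinocytes (black) and all other keratinocytes (green) for the 10 highest genes, 8 of the 10 lowest and 6 named miR-205 targets, with exact 95% counting intervals, of which those of Slpi and Gm10093 run past the axis. Gm8797, Gm7324 and Eva1a lie together in both, Ccl20 and Ifnk lie on opposite sides of 0, and the 6 targets lie between -0.36 and 0.25.

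Lists described the same comparison, beside 3.13% of all genes at least 2-fold higher and 1.97% lower. Epithelial transcription factors had 6 of 27 genes at least 2-fold higher and none lower (median 0.32), among them Lhx2, a bulge factor, at 24.4 and 70.0 CPM (1.52, 1.22 to 1.83). Growth factors and receptors had 5 of 29 higher and 2 lower (median 0.37), with Pdgfb at 1.62 (1.21 to 2.04). Chemokine, cytokine and antigen presentation genes had 6 of 30 higher and 1 lower (median 0.15), including Cxcl10, a T cell chemokine, at 3.69 with 89.7% of induced UMIs in 5 cells, while Lif, a cytokine, had -1.53. Activin, BMP and TGF-beta genes had 3 of 34 higher and none lower (median 0.18), with the ligand Bmp6 at 1.60 (1.10 to 2.12) and the activin subunit Inhba at -0.75 (-1.27 to -0.28).

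The remaining lists follow with the same counts. Keratins had 3 of 15 higher and 1 lower (median 0.38), with Krt75 at 1.21, or -1.08 in cells with 20 or more rule UMIs, and 82.3% of its induced UMIs in 5 cells. Wnt genes had 3 of 31 higher and 1 lower (0.22), with the receptor Fzd2 at 1.71, integrin and basement membrane genes 3 of 31 higher and none lower (0.13), with Fbln1 at 1.08, and Hedgehog and Notch genes 2 of 17 higher and none lower (0.19), with the Hedgehog inhibitor Hhip at 2.12 from 12 and 31 UMIs. Neurotrophin genes had 2 of 11 higher and none lower (0.44), with Ntf3 at 1.49 (0.92 to 2.10), or -0.11 without the Pthlh and Aspn cells. Cell cycle genes had 1 of 30 higher and 2 lower (-0.0028), with Ccnb2 at -1.68 from 30 and 5 UMIs. Prostaglandin genes had none of 9 on either side (0.22), with the prostaglandin transporter Slco2a1 at -0.68 (-0.86 to -0.51), axon guidance genes none of 24 (0.25), with Sema3c at -0.60, and immediate early genes 1 of 32 higher and none lower (0.21), with Fos at 0.79. Heat shock genes had none of 11 past 2-fold, but 10 lay above 0, as did 5070 of all 9836 genes. Their median was 0.29, and 0.45 in limit-matched keratinocytes, with Hspa1b at 0.84 in Fst-high keratinocytes.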

How the data were processed

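Dissociated, sorted back skin cells of 1 control and 1 miR-205 inducible mouse were profiled by 10x Genomics single-cell RNA-seq. The authors made the deposited UMI counts, whole numbers per gene and barcode, with Cell Ranger (version 3.0.1 in the matrix header), against mm10 per the submitters' processing notes, without normalization. There were 4545 control barcodes with 55465594 UMIs in all and 4264 induced barcodes with 49733560. Of these, 3936 (86.6%) and 3628 (85.1%) were kept by the filter the study states: more than 200 and fewer than 5000 genes and under 10% mitochondrial UMIs. The libraries shared 11 barcodes, none of them selected in both. Doublets stayed in, and an alternative left out the 165 control and 145 induced barcodes with the highest Scrublet scores (scanpy 1.11.5), a number set from 0.8% per 1000 barcodes.

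Counts were summed per cell group and library (numpy 2.4.6, scipy 1.17.1) and scaled to CPM. Log2 ratios used a pseudocount of 0.5 UMIs. Ratios carry an exact conditional binomial interval, levels an exact Poisson interval and shares a Clopper-Pearson interval, all at 95%, while differences of shares carry Newcombe's interval. With 1 library per group no test was made. The ratio and its interval were tested on simulated Poisson counts without spread between cells or mice. How the intervals cover such spread was therefore not tested. A share of 0 is given with its exact upper bound. Thinning drew 5000 UMIs per cell. For UTRs, gene models of another build (NCBIM37, GENCODE vM1) were matched by symbol, and Piezo1 and Eva1a were not matched. The build of the counts itself was not used for coordinates.

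Named genes were Fst, Nts, Ntrk2, Ptger4 and Plk2, the 20 highest and 10 lowest genes of the first comparison by the library with the smaller difference, the 10 highest and 10 lowest of the second (all with at least 100 UMIs), 6 targets, and examples from the 2 highest and 2 lowest genes of each of 16 lists. Members of the group and all lists were chosen with earlier results of these data known. Postn, Krt14 and Igfbp3 were named after their values were seen. Some genes that met these rules are not reported here. The closing section gives 14 alternatives, and 2 added after seeing the data.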

Additional observations from a re-analysis of the deposited data

Results flagged for a closer look

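Scd1, which encodes the desaturase that makes monounsaturated fatty acids, differed in opposite directions in Fst-high and limit-matched keratinocytes. In Fst-high keratinocytes its log2 ratio of the induced over the control library was -0.69 (-1.18 to -0.23), from 146 and 52 UMIs. In limit-matched keratinocytes it was 0.73 (0.57 to 0.88). Cells with 20 or more UMIs of Plin2 and Akr1c18 made up 20.1% of the control and 30.7% of the induced limit-matched keratinocytes. With 1 library per group the difference was not tested.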

How the results depend on the processing

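Of 2777 values of 215 results under 14 planned settings and 2 added after seeing the data, 2153 stayed within the stated limits and 600 moved. A further 24 changed sign from at least 2-fold, a definition set, like the genes it covers, after a first count had been seen; 50 values whose counting interval excluded 0 changed sign. The cause of the changes was not tested. No paired analysis was possible because each group is 1 library.

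Selected control and induced cells numbered 246 (15.9% of keratinocytes) and 154 under 5% mitochondrial UMIs, 295 (9.26%) and 118 (4.40%) with at least 2 of the 4 genes, 897 (31.1%) and 531 (23.2%) when thinned before the rule, and 352 (11.0%) and 175 (6.52%) at 20 UMIs (added). At 5 UMIs the shares were 15.2% and 10.3%. Against limit-matched keratinocytes, 204 genes were higher and 437 lower in both libraries, and 308 were higher and 194 lower in the induced cells. These 4 counts became 109, 183, 80 and 37 with at least 100 UMIs, and 325, 1168, 1636 and 1037 with no filter. The higher count against the reference was 727 without each gene's 5 highest cells and 99 against all other keratinocytes, the lower one 186 under 5% mitochondrial UMIs and 669 at 20 UMIs (added), and 625 genes were lower in induced cells without the 5 highest cells.

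Ratios to the reference that changed sign were, in the induced library, Pyy (-0.33), Ptgs2 (-0.15), Egr3 (0.36) and Cxcl1 (0.67) under 5% mitochondrial UMIs, Pyy (-0.71) and Ptgs2 (-0.15) when thinned, and Wnt16 (0.34, from -1.36) against cells with 0 UMIs of the 4 genes. Wif1 in the control library had -0.20 with at least 2 of the 4 genes. Against all other keratinocytes Crabp2 had -1.07 and -0.26, Alox12e -1.36 and -1.22, and, in the induced library, Egr3 0.13 and Cxcl1 0.82. Induced over control ratios that did so were Ctgf (-0.52) with at least 2 genes, Tnfaip6 (1.62 thinned, 0.21 without doublets), Krt75 (-1.08) at 20 UMIs (added), and, without the 5 highest cells, Ifnk (-0.79), Cxcl2 (-0.13) and Tnfaip6 (0.020). Without the Pthlh and Aspn cells (added), Ctgf had -0.93, Pthlh -0.54 and Ntf3 -0.11.

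Genes with few UMIs limit this comparison, and ratios from under 20 UMIs on either side have wide intervals. No depth replaces the missing replicate mice.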

Other observations

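Marker lists of neighbouring keratinocytes were summed up beside the comparisons above. Of 7 bulge markers, 5 were above limit-matched keratinocytes in both libraries (medians 0.78 and 1.19 in the control and induced library), as were 3409 of all 10669 genes tested. The summed level of the 7 was lower, at 3402 and 4779 CPM against 4400 and 5532, and the rule limited Cd34 and Krt24 among them in both groups of cells. Of 4 isthmus markers (Lrig1, Plet1, Lgr6 and Gli1), 3 were above in both (medians 0.28 and 0.82), and their summed level was 2749 and 3231 CPM against 2025 and 1830. Of 4 basal epidermis markers, which include the limited Ly6a, 3 were below in both (medians -0.94 and -0.27), as were 3997 of all 10669 genes. In the induced library all 7 bulge markers were above the control library (median 0.58, and 0.34 in limit-matched keratinocytes), and all 4 isthmus markers were as well (median 0.36, and -0.16 in limit-matched keratinocytes), as were 5070 of 9836 genes.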
